A study of Mus musculus with 48 samples.

Results

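The genes described here are 34 B and T lymphocyte genes, measured in cultures of mouse liver and blood macrophages. They are 13 genes of B cell surface receptors and their signalling, 8 of B cell transcription, 10 of T cells and 3 of cytotoxic lymphocytes. Probe sets annotated to 32 of the 34 symbols were measured, out of 19505 genes on the array, and each of the 32 had 1 probe set. Cd27 and Tcf7 had no named probe set and were not analysed here, and neither were the immunoglobulin constant genes Ighm, Ighd and Igkc, and the T cell receptor constant genes Trac, Trbc1 and Trbc2. The study cultured Kupffer cells, which are macrophages that reside in liver sinusoids, taken from male BALB/c mice by magnetic sorting on the macrophage surface antigen encoded by Adgre1, beside monocytes sorted on CD115 from blood of those animals. All cells first spent 1 day in MCSF, the growth factor of macrophages. They then went on for 1 or 3 days with hepatocyte growth factor (HGF), with Ito cells (hepatic stellate cells), with CD146 cells (sinusoidal endothelial cells), or with further MCSF as the control, and days below are counted from that point. Each of the 16 groups by cell, addition and day held 3 cultures, which the sample titles call biological replicates, with 1 array per culture and 48 arrays in all. The labels do not say whether added cells shared the dish with the macrophages or were taken out before RNA extraction, whether MCSF stayed in the medium beside the additions, or how pure the sorted cells were.

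B cells recognise antigen through a membrane immunoglobulin whose signal passes through Cd79a and Cd79b, and their identity is held by the transcription factors Ebf1 and Pax5. T cells signal through the Cd3 chains of the T cell receptor, use Cd4 or Cd8a as coreceptors, and depend on Il7r, the receptor for interleukin 7, for survival. The liver sinusoids and the blood both carry B and T cells, and several genes listed here as lymphocyte genes are also transcribed in macrophages of the mouse, among them Cd72, Blnk, Cd4 and Foxp1.

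Promoter windows of 4 genes are shown because these genes stand for the patterns described below: Cd79a and Cd3e fell with time in culture, Blnk rose, and Cd22 differed between additions. The windows are from RefSeq on GRCm38.p6, run from 250 bases before to 50 after the start of each gene, and are written on the strand of the gene: chr7:24897247-24897546 (plus strand) for Cd79a, chr9:45009562-45009861 (minus strand) for Cd3e, chr19:40994172-40994471 (minus strand) for Blnk and chr7:30878979-30879278 (minus strand) for Cd22. Capitals mark matches, on either strand, to GGAAGTG (ETS factors), CAGGTG (the E-box of E proteins), ATGCAAAT (the octamer of Oct factors) and TCCC followed after any 2 bases by GGGA (EBF factors).
Cd79a: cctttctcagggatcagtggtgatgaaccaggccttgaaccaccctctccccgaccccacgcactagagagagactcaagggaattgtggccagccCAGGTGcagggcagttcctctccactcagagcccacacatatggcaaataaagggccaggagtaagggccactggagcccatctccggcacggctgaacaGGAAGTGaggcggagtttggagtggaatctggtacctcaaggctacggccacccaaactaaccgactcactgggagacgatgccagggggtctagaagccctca
Cd3e: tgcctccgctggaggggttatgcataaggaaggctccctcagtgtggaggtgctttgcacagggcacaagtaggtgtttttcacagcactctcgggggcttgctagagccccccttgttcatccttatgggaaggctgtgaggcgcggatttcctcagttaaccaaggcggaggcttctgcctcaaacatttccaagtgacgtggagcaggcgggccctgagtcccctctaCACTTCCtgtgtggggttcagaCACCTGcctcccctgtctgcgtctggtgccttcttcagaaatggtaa
Blnk: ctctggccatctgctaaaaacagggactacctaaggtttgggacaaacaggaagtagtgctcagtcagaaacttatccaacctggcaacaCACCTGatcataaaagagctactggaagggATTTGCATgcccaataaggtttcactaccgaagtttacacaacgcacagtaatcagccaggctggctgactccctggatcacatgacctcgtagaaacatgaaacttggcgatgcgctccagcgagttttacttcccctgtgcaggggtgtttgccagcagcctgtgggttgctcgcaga
Cd22: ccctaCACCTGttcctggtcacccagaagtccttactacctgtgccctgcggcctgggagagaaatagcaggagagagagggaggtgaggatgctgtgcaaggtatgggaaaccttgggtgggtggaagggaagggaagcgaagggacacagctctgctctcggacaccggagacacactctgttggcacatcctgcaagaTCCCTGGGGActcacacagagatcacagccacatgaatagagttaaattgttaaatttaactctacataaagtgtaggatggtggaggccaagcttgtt
The Cd79a and Cd3e windows each held a GGAAGTG and a CAGGTG match, the Blnk window held the octamer and CAGGTG, and the Cd22 window held the EBF motif and CAGGTG. Windows were at hand for 24 of the measured genes, 29 windows in all, of which 4 held GGAAGTG, 14 held CAGGTG, 1 held the octamer and 1 held the EBF motif. Among all 32851 windows of the same length, 11.0% held GGAAGTG, 20.2% CAGGTG, 1.74% the octamer and 0.904% the EBF motif. No matches overlapped, and a match describes the letters only.

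Of the 48 arrays, 3 stood apart from the other arrays of their group, and the first of them bears on most results below. Replicate 1 of the Kupffer MCSF control at 1 day had 12 of the 32 genes above the mean of the negative control probe sets of its array, against 27 and 28 on the other replicates. The mean log2 level of the B cell surface list on replicate 1 was 5.11, against 8.89 and 9.69 on the others, and that of 13 core macrophage genes was 13.99, against 15.64 and 15.62. The 9 sinusoidal endothelial genes went the other way, with a mean log2 level of 10.33 on replicate 1 and 8.68 and 7.60 on the others, and so did 9 hepatocyte genes, at 8.98 against 8.26 and 7.31. The main counts that use this group are therefore given with all arrays and without replicate 1, and single differences are with all arrays where nothing else is said. Because lymphocyte values themselves helped set replicate 1 apart, leaving it out raises the 1-day level of most of these genes. Larger falls and added calls without it follow in part from that choice and are no independent support. Replicate 2 of the Kupffer HGF cultures at 1 day and replicate 3 of the monocytic MCSF cultures at 3 days also stood apart. The cell cycle list averaged 12.05 on that monocytic array, against 7.15 and 7.22 on its companions. Among arrays not counted with these 3, replicate 3 of the monocytic HGF cultures at 1 day was higher in lymphocyte genes. Its B cell surface list averaged 6.48, against 5.75 and 5.75 on its companions, and its T cell list 6.10, against 5.22 and 5.40. Csf1r, the MCSF receptor, ranged from 13.96 to 18.23 and Ptprc, the leukocyte antigen CD45, from 12.63 to 16.53 over the 48 arrays. The negative control means ran from 5.07 to 6.15, and the number of arrays, 3 a group, limits the precision of every value. The labels do not say whether replicates came from separate animals, so p-values measure the spread between these cultures only.

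The number of genes above the negative controls was highest in Kupffer Ito cultures of 1 day and on replicates 2 and 3 of the Kupffer MCSF control of that day. In the Ito cultures of 1 day 26, 26 and 21 of the 32 genes were above the negative control mean, in the HGF cultures 16, 17 and 15, in the CD146 cultures 15, 14 and 16, and in the MCSF controls 12, 27 and 28. At 3 days the Kupffer arrays had between 8 and 12. Monocytic macrophages had between 12 and 16 at 1 day and between 8 and 12 at 3 days. The bar was not the same in all groups. In Kupffer cultures of 1 day the negative controls averaged 5.18 with Ito cells, 5.26 with HGF, 5.56 with CD146 cells and 5.52 in MCSF. Bank1, Cd72, Blnk, Foxp1, Cd4 and Il7r exceeded the negative controls on all 48 arrays, whereas Cr2 and Nkg7 did so on 1 array each and Cd5 and Gzmb on no array. Ms4a1 (CD20), Blk, Fcrla, Cxcr5, Pax5, Spib, Pou2af1, Bcl11a, Cd3g and Cd3d passed on 3 to 5 arrays.

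**Figure D1:**
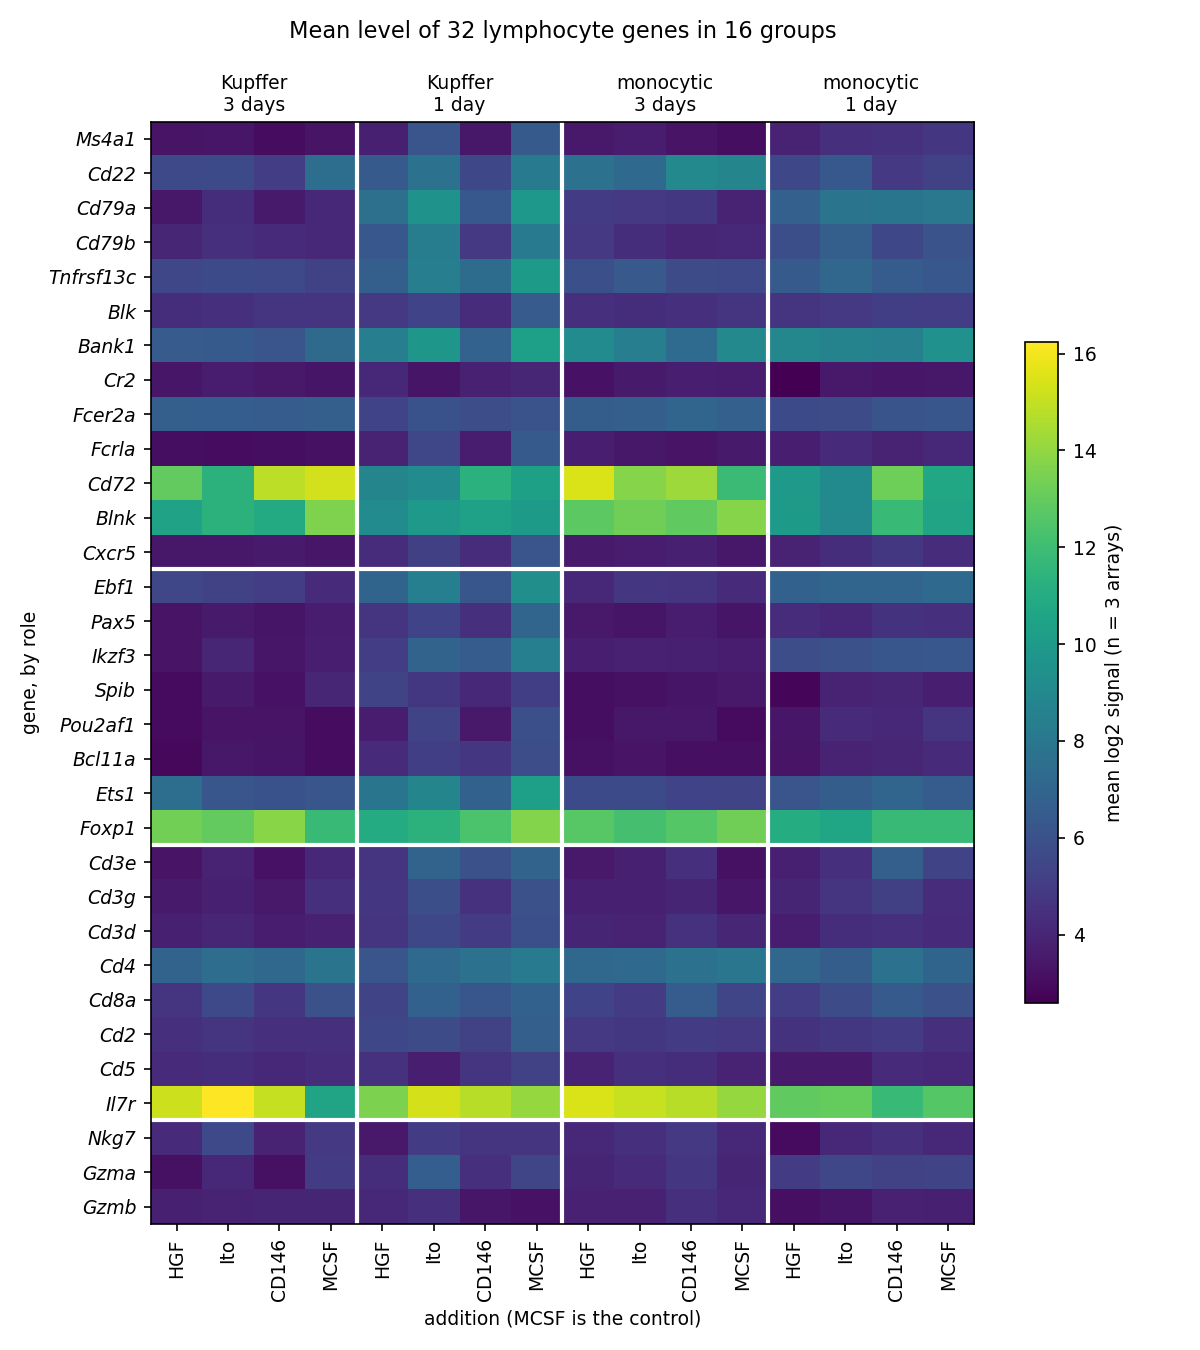
Mean log2 level of each of the 32 genes (rows) in the 16 groups of 3 arrays (columns). Cd79a reaches a group mean of 9.89 in the Kupffer MCSF controls of 1 day and lies at 3.44 in Kupffer HGF cultures of 3 days, while Cd72, Il7r, Blnk and Foxp1 stay above the negative controls in every group.

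The first comparison set Kupffer cells after 3 days in MCSF against those after 1 day, and asked whether lymphocyte transcripts persisted. With all arrays 22 of the 32 genes were lower at 3 days, against 10.2% of all genes, and 3 were higher, against 21.5%, by limma with an adjusted p under 0.05. Without replicate 1 of the 1-day control, 27 were lower, against 8.5% of all genes, and 2 higher, against 17.4%. When the fit held only the arrays compared, 11 genes were called in either direction, against 25 with all arrays, and Cd79a (adjusted p = 0.0769), Cd79b (0.0966), Tnfrsf13c (0.0569), Bank1 (0.17), Pax5 (0.107) and Cd3e (0.0965) were among those that did not pass. The main fit shares 1 spread per gene over the 16 groups, whereas the SD of Cd79a was 4.66 in the 1-day control and 0.27 at 3 days. The median difference over the 32 genes was -2.32 on the log2 scale, or -3.18 without replicate 1, where each difference is taken relative to the median of all genes in the same comparison. That median was 0.15 here, and differences below are given relative to it wherever it exceeded 0.1, while the p-values test the difference itself. In a culture of mixed cells, fewer cells of a type and less RNA per cell cannot be told apart.

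Among the B cell surface genes, 8 of 13 were lower at 3 days and 3 higher. Cd79a, the signalling chain of the B cell receptor, had log2 levels of 3.81, 4.28 and 4.29 at 3 days, against 4.51, 12.80 and 12.35 at 1 day. All 3-day arrays lay below all 1-day arrays, and replicate 1 of the 1-day group was near them. The log2 difference for Cd79a was -5.91 ± 0.93 (SE, adjusted p = 4.04e-06), or -8.62 ± 0.41 without replicate 1. Its partner Cd79b had 4.11, 3.65 and 4.58 at 3 days, against 4.19, 9.60 and 10.97 at 1 day, and differed by -4.29 ± 0.72 (adjusted p = 1.43e-05), or -6.35 ± 0.36 without replicate 1. Tnfrsf13c, the receptor through which BAFF keeps B cells alive, had 5.43, 5.41 and 4.99 at 3 days, against 6.13, 11.16 and 12.73 at 1 day. The 2 sets of Tnfrsf13c values did not overlap, and the difference was -4.88 ± 0.70, or -6.84 ± 0.38 without replicate 1. Bank1, an adaptor of the B cell receptor, differed by -3.14 ± 0.69, or -5.00 ± 0.42 without replicate 1, and stayed above the negative controls, with 7.27, 7.30 and 7.26 at 3 days against 6.61, 11.39 and 12.81 at 1 day. Ms4a1, Fcrla, Cxcr5 (the receptor for the follicular chemokine Cxcl13) and Blk (a Src family kinase of B cells) were also lower, with differences between -2.02 and -3.43, or between -3.34 and -5.21 without replicate 1, and their 3-day values were below the negative controls. Cr2, the complement receptor CD21, did not pass the test with all arrays, at -0.86 ± 0.35 (adjusted p = 0.119), and was lower without replicate 1.

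All 8 B cell transcription genes were lower at 3 days, with all arrays and without replicate 1. Ebf1 had log2 levels of 4.34, 4.08 and 4.39 at 3 days, against 5.94, 10.004 and 12.08 at 1 day. Each 3-day array was below each 1-day array, including replicate 1, and the difference was -5.22 ± 0.63 (adjusted p = 2.56e-08), or -6.95 ± 0.37 without replicate 1. Ikzf3 (Aiolos), which restrains B cell receptor signalling, had 4.13, 3.34 and 3.68 at 3 days, against 6.25, 9.24 and 9.87 at 1 day, a difference of -4.88 ± 0.42, or -6.01 ± 0.26 without replicate 1. Pax5 had 3.57, 4.02 and 3.35 at 3 days, against 3.56, 8.32 and 9.15 at 1 day, so that replicate 1 lay within the 3-day range, and it differed by -3.51 ± 0.61, or -5.26 ± 0.29 without it. Ets1 was the exception in its spread. This ETS family factor of B, T and endothelial cells had 5.91, 6.27 and 6.46 at 3 days, against 9.85, 10.30 and 10.68 at 1 day, so replicate 1 was close to its companions, and the difference of -4.21 ± 0.30 hardly moved without it (-4.45 ± 0.33). Foxp1, Bcl11a, Pou2af1 (the coactivator that works with Oct factors) and Spib made up the rest of the list, with differences between -1.19 and -3.01, or between -1.87 and -4.52 without replicate 1.

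**Figure D2:**
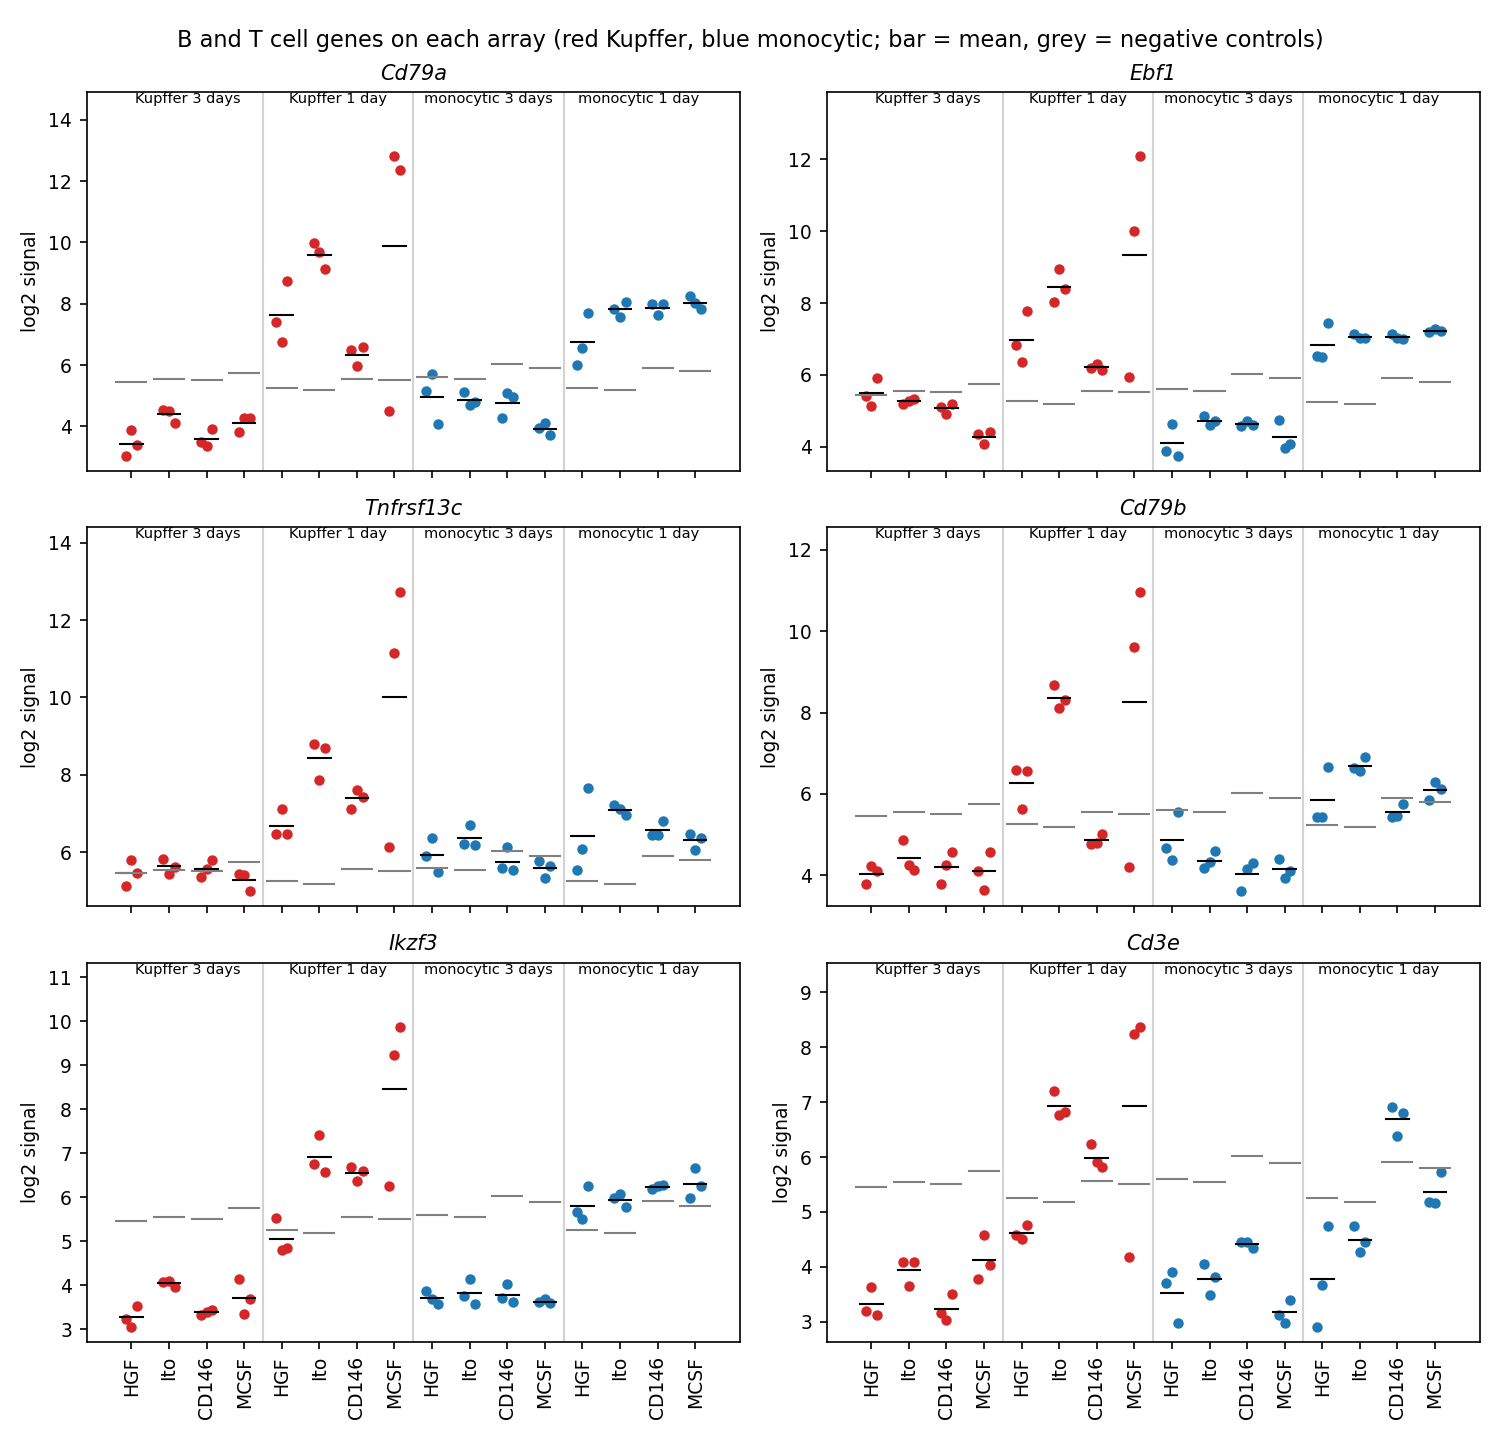
Log2 level of Cd79a, Ebf1, Tnfrsf13c, Cd79b, Ikzf3 and Cd3e on each array, by group, with each point a culture and the bar the group mean. In Kupffer cultures the points at 3 days lie near or below the negative controls, while Tnfrsf13c has 6.22, 6.71 and 6.20 in monocytic Ito cultures of that day. In the Kupffer MCSF group of 1 day replicate 1 (Cd79a 4.51) lies far below its companions (12.80 and 12.35).

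T cell genes had a median difference of -1.94, against -2.89 for the B cell surface and -3.26 for the B cell transcription genes. Of 8 measured T cell genes 6 were lower at 3 days with all arrays and all 8 without replicate 1, where Cd4 at -1.11 ± 0.33 and Cd8a at -2.27 ± 0.34 passed as well. Cd5, which is among the 6, exceeded the negative controls on no array. Cd3e, a signalling chain of the T cell receptor complex, had 3.78, 4.57 and 4.03 at 3 days, against 4.18, 8.24 and 8.37 at 1 day, and the groups overlapped through replicate 1. The difference for Cd3e was -2.95 ± 0.52 (adjusted p = 3.78e-05), or -4.35 ± 0.32 without replicate 1, and for Cd3d, Cd3g, Cd2 (an adhesion receptor) and Cd5 (a brake on receptor signalling) it lay between -1.07 and -2.38, or between -1.0023 and -3.03 without replicate 1. Il7r did not depend on replicate 1. It had 10.58, 10.65 and 10.38 at 3 days, against 13.94, 14.30 and 13.94 at 1 day, and the difference was -3.67 ± 0.25, or -3.76 ± 0.28 without that array. Il7r did not follow Cd3e in all cultures. In Kupffer Ito cultures of 3 days Il7r had 16.31, 16.04 and 16.37, where Cd3e had 4.09, 3.66 and 4.08. Of the cytotoxic genes, Gzma (granzyme A) had 4.58, 5.14 and 5.10 at 3 days, against 4.43, 5.76 and 6.11 at 1 day, at -0.64 ± 0.28 (adjusted p = 0.193), and passed only without replicate 1, at -1.17 ± 0.27. Nkg7 and Gzmb did not pass either way and stayed at or below the negative controls.

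A few genes of the lists rose instead. Cd72, a B cell coreceptor that binds semaphorin and is also found on macrophages, had 15.54, 15.20 and 15.10 at 3 days, against 7.92, 11.30 and 11.82 at 1 day. Its 3-day values were above all 1-day values, and the difference was 4.78 ± 0.61, or 3.54 ± 0.53 without replicate 1. Blnk, the adaptor that couples Syk to phospholipase C in B cells and works in macrophages too, had 13.30, 13.67 and 13.83 at 3 days, against 8.68, 10.51 and 10.82 at 1 day, a difference of 3.45 ± 0.38, or 2.76 ± 0.36 without replicate 1. Fcer2a, the low affinity IgE receptor CD23, had 6.81, 7.04 and 6.33 at 3 days, against 5.79, 6.03 and 6.43 at 1 day, and its difference of 0.50 ± 0.23 (adjusted p = 0.0287) did not pass without replicate 1. Cd22, a sialic acid binding inhibitory receptor, behaved differently from both groups of genes. It had 7.41, 7.62 and 7.52 at 3 days, against 4.66, 9.66 and 10.24 at 1 day, so that the 3-day values lay between replicate 1 and the others. The difference for Cd22 did not pass with all arrays, at -0.82 ± 0.64 (adjusted p = 0.46), and was -2.61 ± 0.34 (adjusted p = 3.17e-07) without replicate 1.

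**Figure D3:**
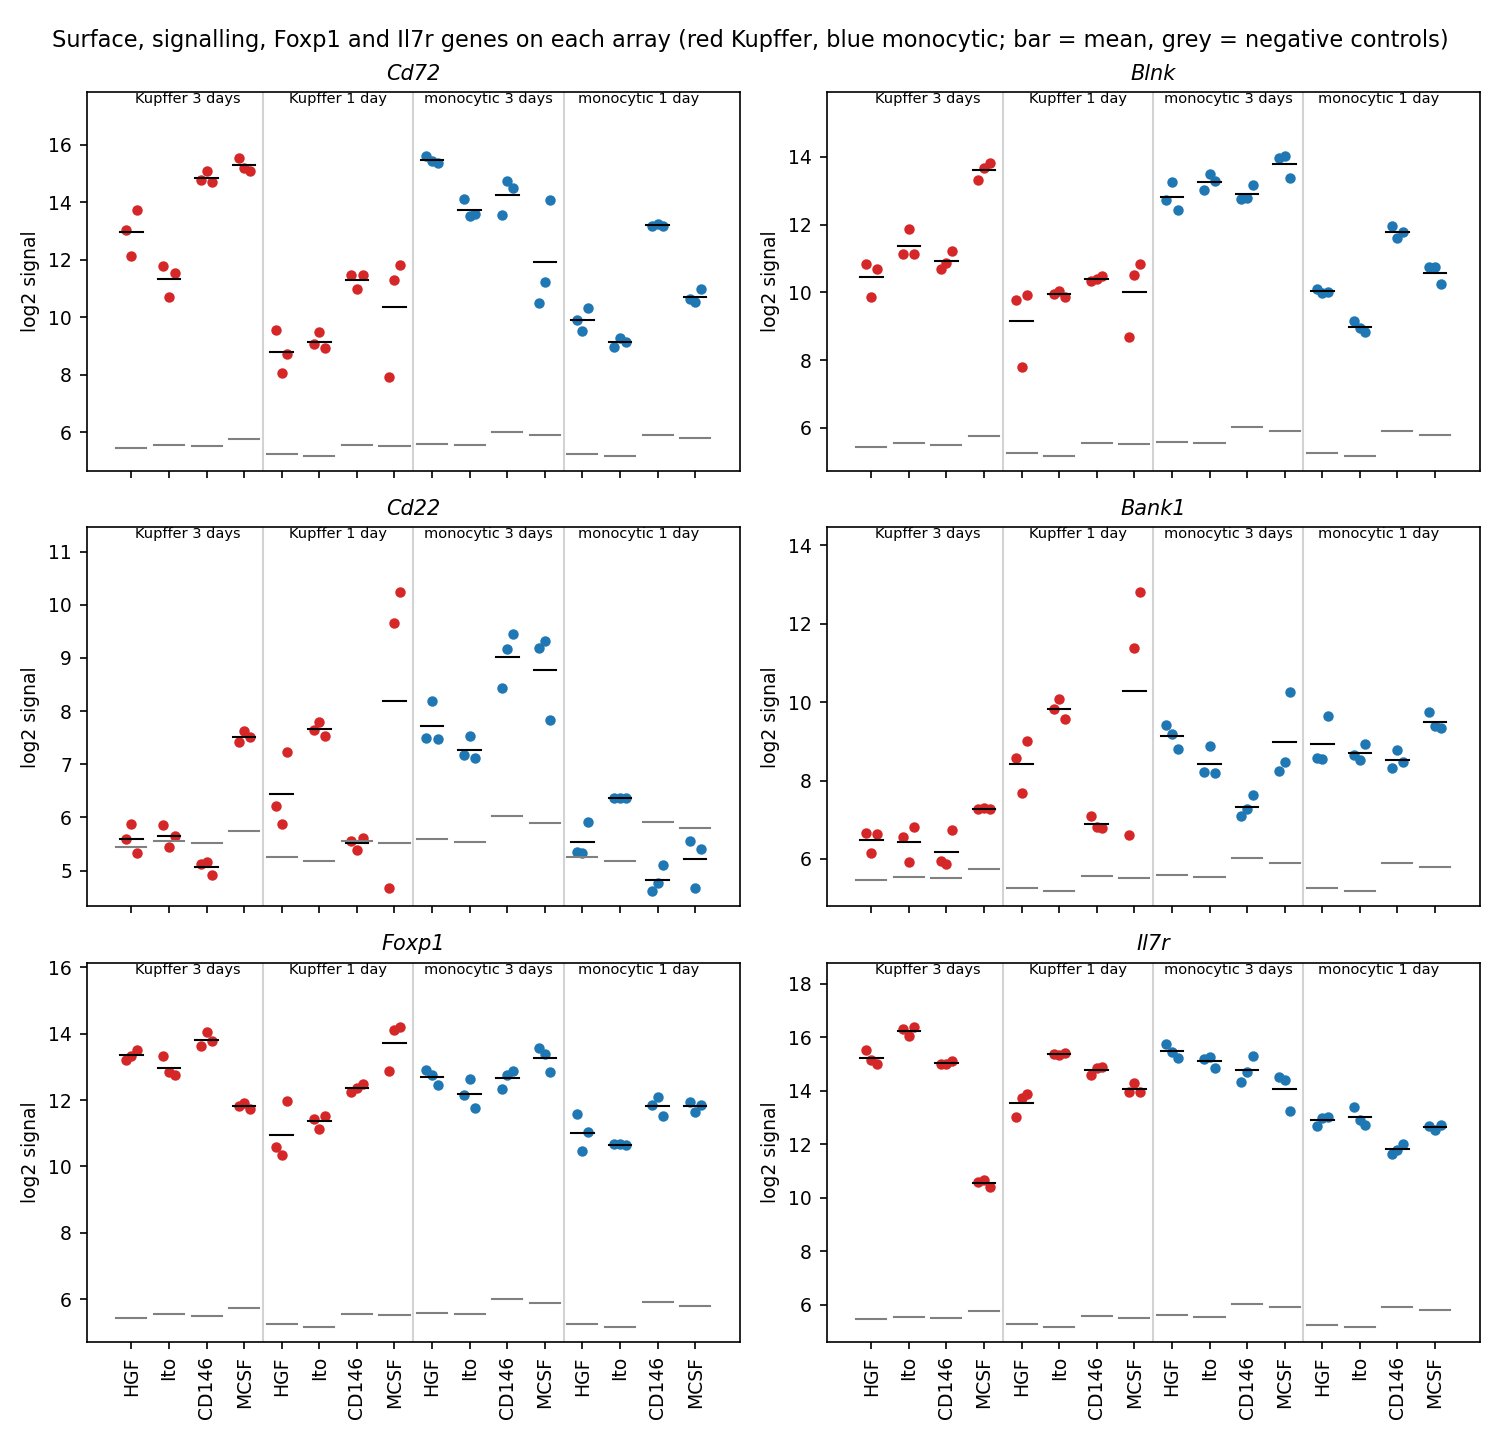
Log2 level of Cd72, Blnk, Cd22, Bank1, Foxp1 and Il7r on each array, by group, with each point a culture and the bar the group mean. Il7r lies at 10.38 to 10.65 in Kupffer MCSF cultures of 3 days and at 14.98 or above in the other Kupffer cultures of 3 days, and Cd22 is above 7 at 3 days in the Kupffer MCSF group but below 6 in the other Kupffer groups of that day.

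Genes of other lists showed how far the fall extended. Of 15 further B cell genes 12 were lower in Kupffer MCSF cultures at 3 days and 1 higher, led by Ly6d at -5.10 ± 0.48 and Cd55 at -4.81 ± 0.47, and of 17 further T cell genes 10 were lower, led by Ccr7, the lymph node homing receptor, at -4.03 ± 0.32. The plasma cell gene Jchain, the joining chain of polymeric immunoglobulin, had 4.34, 4.97 and 5.58 at 3 days, against 5.94, 10.62 and 12.35 at 1 day. The mean of all 7 plasma cell genes moved less, with 7.29, 7.01 and 6.92 at 3 days, against 6.94, 8.11 and 8.46 at 1 day. Other cell types moved at the same time. All 9 sinusoidal endothelial genes and 8 of 9 hepatocyte genes were lower at 3 days; Cdh5, the endothelial cadherin, had 3.03, 3.78 and 3.90 at 3 days, against 15.86, 12.91 and 10.87 at 1 day, and Alb (albumin) 4.87, 4.82 and 4.04 at 3 days, against 16.57, 14.85 and 13.40 at 1 day. Of 13 core macrophage genes 8 were higher and 2 lower. Without replicate 1 the genes lower were 12 of 15 further B cell, 14 of 17 further T cell, 9 of 9 endothelial and 7 of 9 hepatocyte genes, and 7 core macrophage genes were higher and 2 lower. The part of these shifts in the fall of the lymphocyte genes was not tested.

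With the additions the lymphocyte genes also fell between day 1 and day 3 in Kupffer cultures. In Ito cultures 21 of 32 genes were lower at 3 days, against 6.82% of all genes, and 6 higher, against 41.8%. In HGF cultures 10 were lower, against 8.32%, and 6 higher, against 34.4%. In CD146 cultures 10 were lower, against 5.93%, and 3 higher, against 18.7%. These comparisons do not hold replicate 1 of the MCSF control, but share its spread, and without that array the genes lower numbered 22 in Ito (7.46% of all genes), 19 in HGF (9.18%) and 16 in CD146 cultures (6.77%). The median of all genes shifted by 0.51, 0.30 and 0.16 in Ito, HGF and CD146 cultures, and when each array was centred on its median the split became 23 lower and 1 higher in Ito, 18 and 4 in HGF, and 14 and 2 in CD146 cultures. With quantile normalization it was 16 lower and 4 higher in HGF cultures. Shares of all genes were not worked out for centring or quantile normalization.

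Cd79a was lower at 3 days in all Kupffer cultures. It had 4.55, 4.51 and 4.12 at 3 days with Ito cells, against 9.99, 9.68 and 9.15 at 1 day, and 3.04, 3.89 and 3.39 with HGF at 3 days, against 7.41, 6.76 and 8.75 at 1 day. With CD146 cells it had 3.49, 3.36 and 3.91 at 3 days, against 6.49, 5.96 and 6.59 at 1 day. No 3-day value overlapped a 1-day value of the same addition. The differences for Cd79a were -5.73 ± 0.93, -4.50 ± 0.93 and -2.92 ± 0.93. Ebf1 had a difference of -3.70 ± 0.63 with Ito cells, which passed, and differences of -1.80 ± 0.63 with HGF (adjusted p = 0.0525) and -1.30 ± 0.63 with CD146 cells (adjusted p = 0.199), both of which passed only without replicate 1 of the MCSF control in the fit. With Ito cells Ebf1 had 5.20, 5.26 and 5.34 at 3 days, against 8.02, 8.95 and 8.38 at 1 day. Ikzf3 was lower with all 3 additions, at -3.39 ± 0.42 with Ito cells, -2.08 ± 0.42 with HGF and -3.33 ± 0.42 with CD146 cells. Cd3e and Gzma also fell with all 3: Cd3e by differences of -3.49 ± 0.52, -1.61 ± 0.52 and -2.92 ± 0.52 in Ito, HGF and CD146 cultures, and Gzma of -3.07 ± 0.28, -1.46 ± 0.28 and -1.45 ± 0.28. In Ito cultures Gzma had 4.27, 3.93 and 4.04 at 3 days, against 6.55, 6.75 and 6.61 at 1 day. The falls of Cd3e with HGF, and of Gzma with HGF and with CD146 cells, lay between values below the negative controls on every array. A pair of these calls was lost when 1 array was left out, and the log2 differences given for such calls, here and below, are before any correction for the median of all genes. Cd3e with HGF lost its call without any array of the groups compared except 3-day replicate 2, at -1.21 to -1.36, and Cd79a with CD146 cells did so without 1-day replicate 1 or 3 or 3-day replicate 1 or 2, at -2.64 to -2.71.

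Foxp1 with all 3 additions, and Il7r with HGF, changed over time in the direction opposite to that in MCSF. Foxp1, which B cells need and monocyte lineage cells also express, was higher at 3 days by 2.09 ± 0.31 with HGF, 1.10 ± 0.31 with Ito cells and 1.30 ± 0.31 with CD146 cells, and differed by -2.05 ± 0.31 in MCSF. Its change over time in each addition minus that in MCSF passed the test of the difference, at 4.29 for HGF, 3.52 for Ito and 3.36 for CD146 cultures before any correction for the median of all genes. Il7r was higher at 3 days with HGF (1.38 ± 0.25) and Ito cells (0.36 ± 0.25, adjusted p = 0.0044), and the change over time again differed from that in MCSF by 5.20, 4.40 and 3.79 in HGF, Ito and CD146 cultures. The change over time was less negative or more positive than in MCSF for 10 genes with HGF (18.8% of all genes), 6 with Ito cells (23%) and 12 with CD146 cells (9.56%), and without replicate 1 for 25 (18.8%), 21 (19.7%) and 21 genes (9.4%). It was more negative for 2 genes with HGF (9.37%), 4 with Ito cells (10.4%) and 1 with CD146 cells (8.05%), and with median centring the split was 7 above and 3 below for HGF and 3 and 4 for Ito cells. Cd72 and Blnk rose in every Kupffer culture except for Blnk with CD146 cells, where the values were 10.67, 10.86 and 11.20 at 3 days, against 10.34, 10.38 and 10.47 at 1 day. With median centring Blnk with HGF and Cd72, Blnk and Il7r with Ito cells did not pass over time, at log2 differences of 0.87, 1.55, 0.78 and 0.23, and Blnk with HGF did not pass with quantile normalization (0.31) or without replicate 2 of the 1-day HGF cultures (0.61) either.

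**Figure D4:**
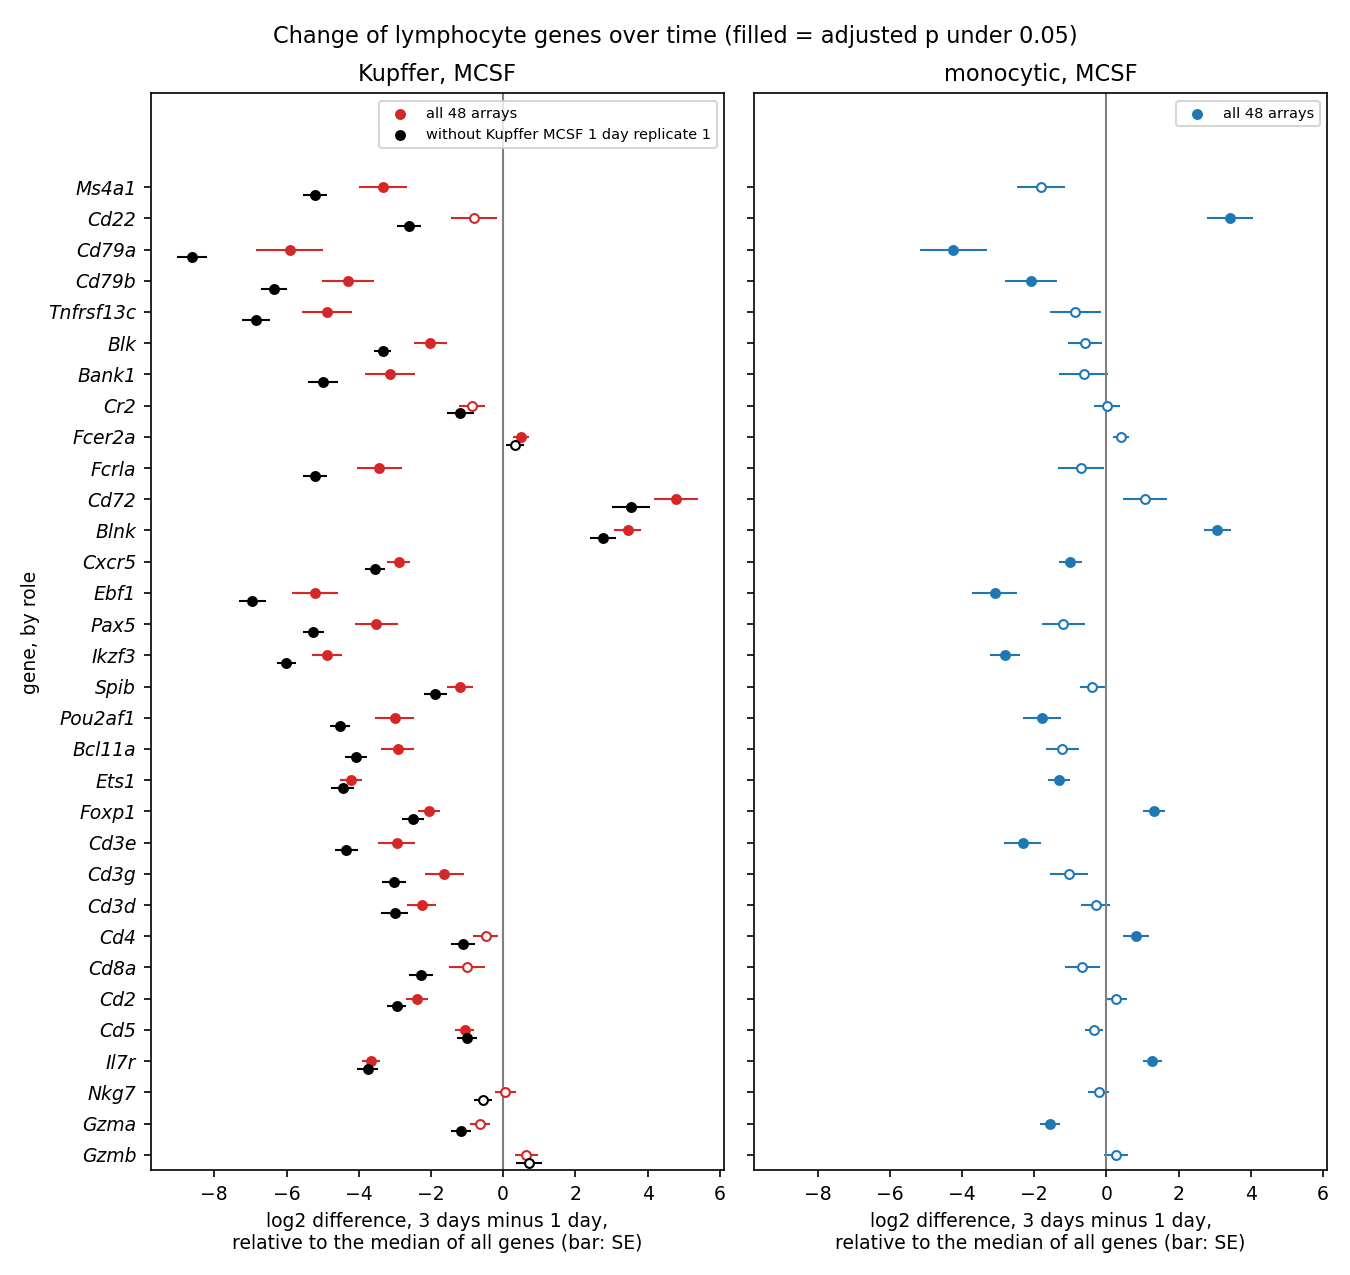
Relative log2 difference (3 days minus 1 day, ± SE) of each of the 32 genes in MCSF cultures of Kupffer cells, with all arrays and without replicate 1 of the 1-day group, on the left, and of monocytic macrophages on the right. Filled points passed the test at an adjusted p under 0.05. Cd79a lies at -5.91 and -8.62 in Kupffer cells and at -4.24 in monocytic macrophages, and Il7r at -3.67 in Kupffer cells and 1.27 in monocytic macrophages.

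Kupffer cells in MCSF for 1 day were then set against monocytic macrophages in MCSF for 1 day, which compares what came with cells of the liver and of the blood. With all arrays 20 of the 32 genes were higher in Kupffer cells, against 9.73% of all genes. Without replicate 1 the number was 26, against 6.39%. Without replicate 2 or 3 of the Kupffer control 13 or 11 genes were called, and with only the arrays compared in the fit 5, where Tnfrsf13c (adjusted p = 0.165) and Cd22 (adjusted p = 0.203) did not pass. The median difference over the 32 genes was 1.57, or 2.66 without replicate 1. Tnfrsf13c had 6.13, 11.16 and 12.73 in Kupffer cells, against 6.47, 6.07 and 6.38 in monocytic macrophages, a difference of 3.70 ± 0.70 (adjusted p = 0.000168), or 5.64 ± 0.38 without replicate 1. Replicate 1 lay inside the monocytic range for Tnfrsf13c and the other replicates far above it. Cd22 had a replicate 1 at the low end of the monocytic values and the others far above them, with 4.66, 9.66 and 10.24 in Kupffer cells, against 5.56, 4.68 and 5.41 in monocytic macrophages. Ets1 did not overlap at all, with 9.85, 10.30 and 10.68 in Kupffer cells, against 6.75, 6.74 and 6.25 in monocytic macrophages, a difference of 3.69 ± 0.30, or 3.91 ± 0.33 without replicate 1. Sinusoidal endothelial genes were also higher in Kupffer cells, 9 of 9, and Cdh5 was at 3.47, 3.87 and 3.98 in monocytic macrophages. Over Kupffer replicates 1, 2 and 3 the endothelial genes averaged 10.33, 8.68 and 7.60, a falling order where that of Ets1 rose. Their part in the Ets1 difference was not tested.

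Monocytic cultures of 1 day had some B cell genes above the negative controls and others below them. In MCSF, Ms4a1, Cd22, Blk, Cr2, Fcrla, Cxcr5, Pax5, Spib, Pou2af1 and Bcl11a were below the negative controls on every array. Ms4a1 averaged 4.76 and Pax5 4.43 there. Cd79a had 8.25, 8.04 and 7.82 in MCSF cultures of monocytic macrophages at 1 day, against negative control means of 5.97, 5.78 and 5.66 on those arrays, and the Kupffer values of 4.51, 12.80 and 12.35 lay on both sides of them. The Cd79a difference did not pass with all arrays, at 1.85 ± 0.93 (adjusted p = 0.155), and was 4.54 ± 0.41 without replicate 1. Ebf1 had 7.20, 7.27 and 7.21 and Bank1 9.74, 9.40 and 9.33 in the monocytic controls of 1 day. Bank1 did not follow Cd79a over time there. At 3 days it had 8.23, 8.47 and 10.26 in the monocytic controls, where Cd79a had 3.94, 4.13 and 3.72. Jchain had 5.94, 10.62 and 12.35 in Kupffer cells, against 9.53, 9.16 and 9.36 in monocytic macrophages. The mean of all 7 plasma cell genes was 6.94, 8.11 and 8.46 in Kupffer cells, against 7.14, 6.88 and 7.24 in monocytic macrophages.

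At 3 days the cell types differed in few of these genes. With all arrays 2 of 32 were higher in Kupffer MCSF cultures, against 6.38% of all genes, and 2 lower, against 5.7%. Cd72 was 3.36 ± 0.61 higher, with 15.54, 15.20 and 15.10 in Kupffer cells, against 10.48, 11.21 and 14.06 in monocytic macrophages, whose replicate 3 is an array that stood apart. Gzma was 0.97 ± 0.28 higher, with 4.58, 5.14 and 5.10 in Kupffer cells, against 4.24, 3.93 and 3.74 in monocytic macrophages, all of them below the negative control means, and lost its call without replicate 2 or 3 of either cell type, at 0.85 to 0.95. Il7r differed by -3.52 ± 0.25, at 10.58, 10.65 and 10.38, against 14.51, 14.41 and 13.23 in monocytic macrophages, and the groups did not overlap. Foxp1 differed by -1.44 ± 0.31.

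The change from 1 to 3 days in MCSF was compared directly between the cell types. In monocytic macrophages 9 of 32 genes were lower at 3 days, against 9.82% of all genes, and 5 higher, against 19.5%, and without replicate 1 of the Kupffer control in the shared spread these were 13 (10.6%) and 6 (20.8%). Cd79a differed by -4.24 ± 0.93 there, with 3.94, 4.13 and 3.72 at 3 days, against 8.25, 8.04 and 7.82 at 1 day, and Ebf1 by -3.10 ± 0.63, with 4.75, 3.97 and 4.06 at 3 days against 7.20, 7.27 and 7.21 at 1 day. Both genes fell in both cell types, and neither passed the test of the difference between cell types with all arrays, while both did without replicate 1. The change was more negative in Kupffer cells for 10 of the 32 genes, against 8.84% of all genes, and more positive for Cd72 alone, against 9.63%, and without replicate 1 it was more negative for 24, against 7.71%. The Kupffer change minus the monocytic change was -4.23 for Cd22, -4.00 for Tnfrsf13c, -4.93 for Il7r and -3.36 for Foxp1, all past the test. Cd22 rose in monocytic macrophages by 3.42 ± 0.64, with 9.19, 9.31 and 7.83 at 3 days, against 5.56, 4.68 and 5.41 at 1 day. Blnk rose by 3.07 ± 0.38 in monocytic macrophages, close to its 3.45 ± 0.38 in Kupffer cells.

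Monocytic cultures with additions were also compared over time. With HGF 3 of the 32 genes were lower at 3 days, against 4.54% of all genes, and 7 higher, against 56%. With Ito cells 6 were lower, against 6.24%, and 6 higher, against 35.3%, and with CD146 cells 6 were lower, against 8.34%, and 5 higher, against 18.9%. When each array was centred on its median, the split was 7 lower and 4 higher with HGF, 11 and 4 with Ito cells and 11 and 2 with CD146 cells, and with quantile normalization it was 6 and 4, 9 and 4, and 8 and 4. Without the 3 arrays that stood apart, none of which is in these groups, the smaller shared spread gave 6 lower and 9 higher with HGF, 17 and 7 with Ito cells, and 15 and 6 with CD146 cells. Array weights gave 7 and 9, 13 and 7, and 16 and 6 in the same order. The share of all genes called was not worked out under these settings. Such counts therefore show how the calls moved and cannot be set against all genes.

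Over the 8 pairs of 3-day and 1-day cultures of the same cell and addition, some genes fell nearly everywhere. Ikzf3 was lower at 3 days in 8 of 8 cultures, Cd79a in 7, and Ebf1, Cd3e, Gzma and Ets1 in 6 each. Without replicate 1, Cd79a, Ebf1 and Pax5 also fell in 8 of 8. Pax5 exceeded the negative controls on 4 of the 48 arrays, Gzma on 8 and Cd3e on 12. Several of their falls therefore lay between values below the negative controls. Blnk and Foxp1 rose in 7 of 8, and Fcer2a in 7 with all arrays and 6 without replicate 1, although its difference turned sign in Kupffer Ito and monocytic HGF cultures with quantile normalization. Cd72 rose in 6 with all arrays and 7 without replicate 1, and Il7r rose in 6 and fell in 1, the Kupffer MCSF cultures.

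The additions were next compared with MCSF in Kupffer cells at 1 day. With HGF 22 of the 32 genes were lower than in MCSF, against 13.4% of all genes, and 1 was higher, against 4.13%. With CD146 cells 16 were lower, against 2.46%. With Ito cells 7 were lower, against 18% of all genes, and 3 higher, against 5.47%, so that the share lower was near that of all genes. Without replicate 1 of the MCSF group, the genes lower numbered 27 with HGF (15.1% of all genes), 23 with CD146 cells (4.08%) and 25 with Ito cells (12.6%). Leaving out replicate 2 or 3 of the MCSF control instead, the genes called in either direction numbered 10 or 7 with HGF (23 with all arrays), 8 or 6 with CD146 cells (16) and 6 or 6 with Ito cells (10), and without HGF replicate 2 there were 14 with HGF. With only the arrays compared in the fit, limma called 0 genes with HGF (7 at an unadjusted p under 0.05), 1 with CD146 cells and 5 with Ito cells. All 3 counts thus turned on single arrays of the control. When each array was centred on its median, Ito cultures had 3 lower and 3 higher with all arrays, and with quantile normalization 4 lower and 3 higher.

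Cd79a with HGF had 7.41, 6.76 and 8.75, with Ito cells 9.99, 9.68 and 9.15, and with CD146 cells 6.49, 5.96 and 6.59, against 4.51, 12.80 and 12.35 in MCSF. The 9 values with additions lay between replicate 1 and the other MCSF replicates. Relative to MCSF, Cd79a differed by -3.54 ± 0.93 with CD146 cells (adjusted p = 0.0183), and by -2.08 ± 0.93 with HGF and -0.04 ± 0.93 with Ito cells, which did not pass, whereas without replicate 1 the Cd79a differences of -6.23 ± 0.41, -4.77 ± 0.41 and -2.73 ± 0.41 with CD146 cells, HGF and Ito cells all passed. Tnfrsf13c was lower with HGF (-3.15 ± 0.70, or -5.09 ± 0.38 without replicate 1) and with CD146 cells (-2.62 ± 0.70, or -4.55 ± 0.38). It had 6.48, 7.12 and 6.46 with HGF, 8.79, 7.86 and 8.69 with Ito cells and 7.13, 7.61 and 7.44 with CD146 cells, against 6.13, 11.16 and 12.73 in MCSF. Ets1 was lower with all 3 additions, at -2.24 ± 0.30 with HGF, -1.26 ± 0.30 with Ito cells and -3.45 ± 0.30 with CD146 cells. It had 8.12, 7.02 and 8.45 with HGF, 8.43, 8.79 and 9.09 with Ito cells, and 7.12, 6.51 and 6.84 with CD146 cells, against 9.85, 10.30 and 10.68 in MCSF, with no overlap. The sinusoidal endothelial list averaged 8.20 with HGF, 5.93 with Ito cells and 6.05 with CD146 cells, against 8.87 in MCSF. The MCSF arrays had 10.33, 8.68 and 7.60 for that list, and its part in the Ets1 differences was not tested. Foxp1 was likewise lower with all 3, at -2.60 ± 0.31, -2.12 ± 0.31 and -1.37 ± 0.31 with HGF, Ito cells and CD146 cells. Ikzf3 was lower at -3.23 ± 0.42, -1.29 ± 0.42 and -1.90 ± 0.42 in that order. Without replicate 1 these were -2.46, -1.48 and -3.66 for Ets1, -3.02, -2.54 and -1.79 for Foxp1, and -4.33, -2.40 and -3.01 for Ikzf3 with HGF, Ito cells and CD146 cells, and all passed. Il7r was 1.55 ± 0.25 higher with Ito cells, with 15.35, 15.33 and 15.40, against 13.94, 14.30 and 13.94 in MCSF, and Gzma was 1.44 ± 0.28 higher, or 0.94 ± 0.27 without replicate 1, when it did not pass (adjusted p = 0.0675). Several of these calls rested on replicates 2 and 3 of the MCSF control. Without replicate 2 or 3, and before any correction, Cd79a with CD146 cells was at -2.09 or -2.31, Tnfrsf13c with CD146 cells at -2.04 or -1.25, Ikzf3 with CD146 cells at -1.51 or -1.20 and Ikzf3 with Ito cells at -1.14 or -0.82, and none of these passed. Tnfrsf13c with CD146 cells also lost its call without any 1 of the CD146 arrays (-2.49 to -2.72), Cd79a without CD146 replicate 1 or 2 (-3.62 and -3.35), and Ikzf3 with Ito cells with median centring (-1.10).

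Ito cultures of 1 day were then set against CD146 and HGF cultures of 1 day, groups that do not hold replicate 1 of the MCSF control, in comparisons added after the values were seen. The HGF group holds replicate 2, which also stood apart, and without it 9 genes were called between Ito and HGF cultures, against 15 with it. Against CD146 cultures 12 of the 32 genes were higher with Ito cells, against 6.6% of all genes, and 3 lower, against 20.8%, and with median centring 17 were higher and 1 lower. Against HGF cultures 14 were higher, against 15.5%, and 1 was lower, against 19.8%. Without the MCSF array in the shared spread, 17 (7.48% of all genes) and 23 (16.9%) were higher. Cd79b had 8.69, 8.11 and 8.32 with Ito cells, against 4.77, 4.80 and 5.02 with CD146 cells, a difference of 3.78 ± 0.72 (adjusted p = 0.000349). Cd79a was 3.53 ± 0.93, Bank1 3.20 ± 0.69, Ebf1 2.52 ± 0.63 and Gzma 2.42 ± 0.28 higher with Ito than with CD146 cells. Bank1 had 9.83, 10.08 and 9.56 with Ito cells, against 7.09, 6.81 and 6.80 with CD146 cells. Cd72 was lower, at -1.87 ± 0.61, with 9.06, 9.48 and 8.91 with Ito cells, against 11.45, 10.98 and 11.47 with CD146 cells. Cd3e had 7.20, 6.76 and 6.82 with Ito cells, against 4.59, 4.5047 and 4.77 with HGF, and was 2.41 ± 0.52 higher.

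Other lists moved with the Ito cultures. Of 9 neutrophil genes 6 were higher with Ito than with CD146 cells, and their mean log2 level was 11.38, 11.48 and 11.49 with Ito cells, against 10.07, 9.92 and 10.02 with CD146 cells. Jchain had 12.41, 12.53 and 12.66 with Ito cells, against 10.60, 9.89 and 9.93 with CD146 cells. The further T cell genes Thy1 and Cd8b1 were 2.72 ± 0.35 and 2.80 ± 0.54 higher. The mean of all 17 further T cell genes differed less, with 5.90, 5.71 and 5.79 with Ito cells, against 5.22, 5.34 and 5.21 with CD146 cells. Of the 8 measured T cell genes of the main list, only Cd4 and Cd5 had lower means with Ito cells. The 10 stellate cell genes averaged 5.18, 5.18 and 5.22 with Ito cells, against 5.04, 5.03 and 4.87 with CD146 cells, and 1 of them was higher and 1 lower. Cultures of the added cells alone were not analysed here, and the part of these cell types in the lymphocyte values was not tested.

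**Figure D5:**
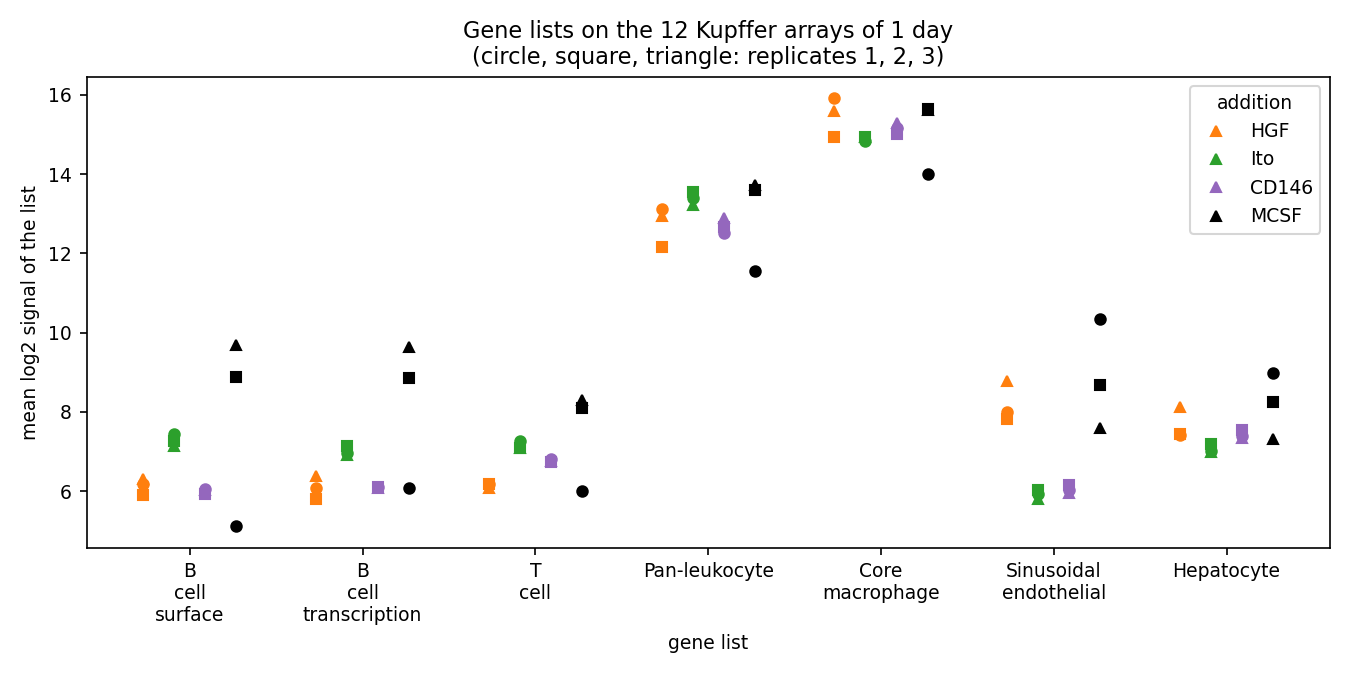
Mean log2 level of 7 gene lists on each of the 12 Kupffer arrays of 1 day, by group. Replicate 1 of the MCSF control is lowest for the B cell surface list (5.11, against 8.89 and 9.69 on its companions) and highest for the sinusoidal endothelial list (10.33), while the Ito arrays (7.43, 7.26 and 7.13) lie above the HGF and CD146 arrays for the B cell surface list.

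Kupffer and monocytic cultures with Ito cells were compared at 1 day in the same way. With all arrays 4 of the 32 genes were higher in Kupffer cells, against 2.23% of all genes: Cd3e, Ets1, Il7r and Gzma. In 27 of the 32 genes all 3 Kupffer arrays were above all 3 monocytic arrays, as in 11.2% of all genes, and without replicate 1 of the MCSF control in the shared spread 21 passed, against 2.9%. Cd3e had 7.20, 6.76 and 6.82 in Kupffer cells, against 4.74, 4.27 and 4.46 in monocytic macrophages, and was 2.44 ± 0.52 higher (adjusted p = 0.00255). Cd79a had 9.99, 9.68 and 9.15 in Kupffer cells, against 7.84, 7.58 and 8.07 in monocytic macrophages, and its difference of 1.77 ± 0.93 passed only without that array. Gzma lost its call without replicate 2 of the Kupffer or replicate 1 or 2 of the monocytic Ito cultures, at 1.07 to 1.10.

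At 3 days few of the genes differed between the additions and MCSF in Kupffer cells. With HGF 6 of the 32 genes were lower than in MCSF, against 13.1% of all genes, and 3 higher, against 14.5%. With Ito cells 4 were lower, against 12.3%, and 3 higher, against 14.5%, and with CD146 cells 4 were lower, against 12.4%, and 2 higher, against 14%. These shares are near those of all genes. Il7r was higher by 4.68 ± 0.25 with HGF, 5.59 ± 0.25 with Ito cells and 4.49 ± 0.25 with CD146 cells. It had 15.51, 15.13 and 15.01 with HGF, 16.31, 16.04 and 16.37 with Ito cells and 14.98, 14.98 and 15.12 with CD146 cells, against 10.58, 10.65 and 10.38 in MCSF. The MCSF values were far below the rest with no overlap. Blnk was lower, at -3.14 ± 0.38, -2.34 ± 0.38 and -2.69 ± 0.38 with HGF, Ito cells and CD146 cells. Cd22 was lower, at -1.91 ± 0.64, -1.98 ± 0.64 and -2.45 ± 0.64 in the same order, with 5.12, 5.16 and 4.93 with CD146 cells, against 7.41, 7.62 and 7.52 in MCSF. The Cd22 call was lost with HGF without HGF replicate 3 or MCSF replicate 2 (-1.78 and -1.86), and with Ito cells without replicate 2 or 3 of the Ito or the MCSF cultures (-1.77 to -1.87). Cd72 was lower with HGF (-2.31 ± 0.61) and Ito cells (-4.05 ± 0.61). It had 13.03, 12.14 and 13.73 with HGF, 11.79, 10.71 and 11.54 with Ito cells and 14.78, 15.08 and 14.69 with CD146 cells, against 15.54, 15.20 and 15.10 in MCSF. Ets1 was 1.31 ± 0.30 higher with HGF, with 8.30, 6.92 and 7.36, against 5.91, 6.27 and 6.46 in MCSF. The sinusoidal endothelial list averaged 7.10, 6.36 and 6.93 on the HGF arrays, against 4.03, 3.97 and 4.13 on the MCSF arrays, and its part in the Ets1 difference was not tested. The cell cycle list averaged between 12.17 and 12.96 with the additions and between 7.20 and 7.39 in MCSF, and the core macrophage list between 13.18 and 14.15 with the additions and between 16.33 and 16.65 in MCSF.

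In monocytic macrophages the additions changed few of the lymphocyte genes. At 1 day 6 genes were lower with HGF, against 37.2% of all genes, where the median of all genes was -0.55. When each array was centred on its median, 1 gene passed there and it was higher. With Ito cells 2 genes, Blnk and Foxp1, were lower, against 13.6%, while with CD146 cells Cd72 was higher, with 13.18, 13.24 and 13.18, against 10.64, 10.52 and 11.00 in MCSF, a difference of 2.48 ± 0.61 (1% of all genes were higher), and with median centring 1 gene was lower as well. Foxp1 with Ito cells did not pass with median centring (-0.90), and Cd72 with CD146 cells did not pass without any 1 of the CD146 arrays or without MCSF replicate 1 or 2 (2.38 to 2.49). At 3 days Cd72 was higher with HGF (3.55 ± 0.61), Ito cells (1.82 ± 0.61) and CD146 cells (2.34 ± 0.61), but the MCSF group includes replicate 3, at 14.06 against 10.48 and 11.21. The Cd72 calls were lost with Ito cells without any 1 Ito array or MCSF replicate 1 or 2 (1.10 to 1.93), and with CD146 cells without CD146 replicate 2 or 3 or MCSF replicate 1 or 2 (1.62 to 2.23). Il7r was higher at 3 days with HGF, by 1.41 ± 0.25, and with Ito cells, by 1.04 ± 0.25, where the call was lost without MCSF replicate 3 (0.63). Genes called at 3 days numbered 2 higher with HGF (7.56% of all genes), joined by 2 lower with quantile normalization, 2 higher and 1 lower with Ito cells (5.8% and 6.66%) and 1 higher with CD146 cells (1.22%).

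The Kupffer response to an addition minus the monocytic response was tested for each gene. At 1 day it was negative for 7 of the 32 genes with HGF, against 2.26% of all genes, 1 with Ito cells (1.9%) and 3 with CD146 cells (0.713%), and positive for 1 gene each, against 20.9%, 1.85% and 0.164%. Median centring gave 9 genes with HGF, each negative, and 2 with Ito cells, both positive, and quantile normalization gave 7 genes with HGF, each negative. At 3 days it was negative for 3 genes with HGF (7.61%), 2 with Ito cells (4.16%) and 7 with CD146 cells (8.54%), and positive for 2 each, against 7.58%, 4.58% and 9.64%. At 3 days the response of Il7r was larger in Kupffer cells by 3.27 with HGF, 4.67 with Ito cells and 3.77 with CD146 cells, and that of Foxp1 by 2.08, 2.23 and 2.60. For Cd72 the same difference of responses was -5.86, -5.75 and -2.77, and for Blnk -2.17, -1.71 and -1.80, all past the test. Blnk with Ito cells lost its call without any 1 of 7 of the 12 arrays (-1.5015 to -1.70), Blnk with CD146 cells without replicate 3 of the monocytic MCSF cultures (-1.59), and Cd72 with CD146 cells without replicate 1 or 2 of those MCSF cultures or replicate 2 of the monocytic CD146 cultures (-2.05 to -2.53).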

How the data were processed

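RNA of 48 cultures was measured on Affymetrix arrays, 1 per culture, in 16 groups of 3 by cell, addition and day, taken from the labels. The deposited values are log2 intensities, 1 per probe set and array, which the authors made with RMA in Transcriptome Analysis Console, per the submitters' processing notes. They run from 0.88 to 19.9. Versions, a genome build and whether RMA ran over all arrays at once are not stated in the notes or labels at hand, so coordinates are those of the RefSeq windows only.

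Of 28846 probe sets 19572 carried 1 gene symbol. For 55 genes with several, the probe set with the highest mean was used, which left 19505 genes, with no filter on level. A gene's level was set against the mean of the 5222 negative control probe sets of the same array.

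The fits used limma (version 3.58.1, R 4.3.3), with 1 mean per group over all arrays, default eBayes moderation, two-sided tests and Benjamini-Hochberg adjustment over all genes of a comparison, at a threshold of 0.05. The fit was tested on simulated data. A second fit left out replicate 1 of the Kupffer MCSF control of 1 day, an array set apart in part by the values of these genes. Tables and figures were made with Python 3.11.15, pandas 2.3.3 and matplotlib 3.10.9.

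The 34 genes, the further gene lists (149 genes, 131 measured) and the tests were chosen with earlier results of these data known. Values on every array were given for up to 14 of the genes, those with a group mean above the negative controls and the widest span of group means, together with the genes at which a comparison's groups differed. From each other list up to 4 genes with the smallest adjusted p per comparison could be named, along with a fixed set of marker genes. Fcer2a, Jchain and Foxp1 were given values beyond this rule, chosen after their values were seen.

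Alternatives were quantile normalization, median centring, leaving out the dimmest genes, trended robust moderation, a block for the replicate number, array weights, only the arrays compared, the mean of probe sets, and leaving out each array or the 3 that stood apart. Replicate numbers did not pair the cultures: deviations of samples with equal numbers correlated at -0.01 on average and those with different numbers at 0.0055.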

Additional observations from a re-analysis of the deposited data

Results flagged for a closer look

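Each value below is a difference of log2 differences, tested as such by limma with all arrays, and given before any correction for the median of all genes. Each passed at an adjusted p under 0.05 over all genes of its comparison.

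The first set is the change from 1 to 3 days in MCSF, in Kupffer cells minus that in monocytic macrophages. It was negative for Cd22 (-4.23), Tnfrsf13c (-4.00), Fcrla (-2.71), Cxcr5 (-1.87), Ikzf3 (-2.05), Ets1 (-2.87), Foxp1 (-3.36), Cd3d (-1.95), Cd2 (-2.65) and Il7r (-4.93), and positive for Cd72 (3.73). Without replicate 1 of the 1-day Kupffer control, Fcrla was -4.46 and Ikzf3 -3.15. Il7r, Foxp1 and Cd22 moved in opposite directions in the cell types by their mean, since they rose in monocytic macrophages.

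The second set is the change from 1 to 3 days in Kupffer cells with an addition, minus that in MCSF, so every value shares the 1-day control with replicate 1 in it. With HGF it was positive for Ms4a1 (2.68), Tnfrsf13c (3.505), Fcrla (2.44), Cxcr5 (1.91), Ebf1 (3.57), Ikzf3 (2.96), Pou2af1 (2.17), Ets1 (3.73), Foxp1 (4.29) and Il7r (5.20), and negative for Blnk (-2.30) and Spib (-1.35). With Ito cells it was positive for Ikzf3 (1.86), Ets1 (1.5), Foxp1 (3.52), Cd2 (1.11), Cd5 (1.54) and Il7r (4.40), and negative for Cd72 (-2.74), Blnk (-2.16), Gzma (-2.06) and Gzmb (-1.28). With CD146 cells it was positive for Ms4a1 (2.75), Cd79b (3.49), Tnfrsf13c (2.91), Blk (2.22), Fcrla (2.74), Cxcr5 (2.01), Ebf1 (3.93), Pou2af1 (2.62), Ets1 (3.23), Foxp1 (3.36), Cd2 (1.41) and Il7r (3.79), and negative for Blnk (-3.08). Foxp1, Il7r, Ets1 and Blnk stand in each of these lists. Without replicate 1, Spib with HGF (-0.69) and Cd72 with Ito cells (-1.52) did not pass, while Ms4a1, Fcrla, Tnfrsf13c and Pou2af1 with HGF and with CD146 cells were more than 1.5 times as large (between 3.66 and 5.44), as were Cd79b (5.52) and Blk (3.52) with CD146 cells and Ikzf3 (2.96) with Ito cells.

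The third set is the response to an addition in Kupffer cells minus that in monocytic macrophages. At 1 day with HGF it was negative for Tnfrsf13c (-3.44), Cxcr5 (-1.4998), Ikzf3 (-2.90), Ets1 (-1.9986), Foxp1 (-1.97), Cd4 (-2.08) and Cd2 (-1.32), and positive for Gzmb (1.55). At 1 day with Ito cells it was negative for Ets1 (-1.52) and positive for Gzmb (1.59). At 1 day with CD146 cells it was negative for Cxcr5 (-2.37), Ets1 (-3.90) and Cd2 (-2.01), and positive for Il7r (1.54). Without replicate 1, Gzmb with Ito cells did not pass (1.68, adjusted p = 0.0527) and Tnfrsf13c with HGF was -5.37. Gzmb was below the negative controls on all arrays.

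At 3 days with HGF the response was more negative in Kupffer cells for Cd72 (-5.86), Blnk (-2.17) and Gzma (-1.77), and more positive for Foxp1 (2.08) and Il7r (3.27). At 3 days with Ito cells it was more negative for Cd72 (-5.75) and Blnk (-1.71), and more positive for Foxp1 (2.23) and Il7r (4.67). At 3 days with CD146 cells it was more negative for Cd22 (-2.69), Cd72 (-2.77), Blnk (-1.80), Cd3e (-2.14), Cd8a (-2.32), Nkg7 (-1.71) and Gzma (-2.50), and more positive for Foxp1 (2.60) and Il7r (3.77). The monocytic controls of 3 days hold replicate 3, which stood apart in Cd72 at 14.06, beside 10.48 and 11.21 on the other replicates.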

How the results depend on the processing

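Counts are of the 32 genes called in either direction, and main counts stand in brackets. No share of all genes stands beside the counts of these settings, so they show only how the calls moved. Array weights gave, for 3 days minus 1 day in Kupffer cells, 22 (13) with CD146 cells. They gave 30 (10) with Ito cells and 26 (16) with CD146 cells against MCSF in Kupffer cells at 1 day, and 14 (9) with HGF and 12 (6) with CD146 cells at 3 days. In monocytic macrophages they gave 15 (6) with HGF, 5 (2) with Ito cells and 6 (1) with CD146 cells at 1 day, and 5 (2), 6 (3) and 6 (1) at 3 days. Kupffer minus monocytic was 10 (4) in MCSF at 3 days and 25 (4) with Ito cells at 1 day. The change over time, Kupffer minus monocytic, was 26 (11), and that of HGF, Ito and CD146 cultures minus MCSF 24 (12), 24 (10) and 22 (13). The Kupffer minus monocytic response was 27 (8), 23 (2) and 27 (4) for HGF, Ito and CD146 at 1 day and 11 (5) for HGF at 3 days. Leaving out the 3 arrays that stood apart gave 9 (4) for Kupffer minus monocytic MCSF at 3 days, 29 (10) for Ito at 1 day, 15 (9) and 12 (6) for HGF and CD146 at 3 days in Kupffer cells, and 14 (6), 6 (2) and 5 (1) at 1 day and 6 (2) for HGF and 4 (1) for CD146 at 3 days in monocytic macrophages. It gave 26 (11), 24 (12), 27 (10) and 22 (13) for the same 4 differences over time, 24 (8), 19 (2) and 27 (4) for the responses at 1 day, 10 (5) for HGF at 3 days, and 25 (4) for Kupffer minus monocytic Ito cultures. Over time in monocytic cultures, array weights gave 16 (10), 20 (12) and 22 (11) with HGF, Ito and CD146, leaving out the 3 arrays 24 (12) with Ito and 21 (11) with CD146, and only the arrays compared 24 for both. Median centring gave 6 (10) for Ito in Kupffer cells and 1 (6), 1 (2) and 2 (1) for HGF, Ito and CD146 in monocytic macrophages at 1 day. Quantile normalization gave 0 (6) for HGF in monocytic macrophages at 1 day by limma, where 1 gene had an unadjusted p under 0.05, 2 (1) for CD146 at 1 day and 4 (2) for HGF at 3 days. Leaving out the dimmest genes gave 3 (6) for HGF in monocytic macrophages.

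With only the arrays compared in the fit, 11 (25) genes were called over time in Kupffer MCSF cultures, 26 (13) with CD146 cells, 5 (20) in Kupffer minus monocytic MCSF at 1 day and 25 (4) with Ito cells. Against MCSF at 1 day, Kupffer cells had 0 (23) with HGF by limma (7 at an unadjusted p under 0.05), 5 (10) with Ito and 1 (16) with CD146 cells, and 13 (6) with CD146 at 3 days, and monocytic macrophages 12 (6), 8 (2) and 5 (1) at 1 day. The differences over time were 4 (11) for Kupffer minus monocytic, 3 (12) for HGF and 5 (13) for CD146, and the responses at 1 day 0 (8) for HGF (7 unadjusted), 1 (2) for Ito and 2 (4) for CD146. Fewer arrays leave fewer residual degrees of freedom there, and the spread is then that of the groups compared alone. That spread was unequal. Cd79a had an SD of 4.66 in the Kupffer MCSF control of 1 day and 0.21 in the monocytic one. Counts fell in comparisons with that Kupffer control and rose in several others, and the cause was not tested.

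Leaving out 1 array of the groups compared gave a range of 22 to 29 for Kupffer MCSF over time, 6 to 11 for CD146 over time, 11 to 26 for Kupffer minus monocytic MCSF at 1 day, 7 to 28 for HGF, 6 to 27 for Ito and 6 to 23 for CD146 in Kupffer cells at 1 day, 9 to 16 for Ito minus HGF and 4 to 6 for Ito at 3 days. In monocytic macrophages it was 1 to 4 for HGF and 0 to 1 for CD146 at 1 day and 1 to 3 for Ito and 0 to 1 for CD146 at 3 days by limma, with 4 to 7 at an unadjusted p under 0.05 for CD146. The differences over time ran from 9 to 25 for Kupffer minus monocytic, 8 to 26 for HGF, 8 to 24 for Ito and 8 to 22 for CD146, and the responses at 1 day from 6 to 25 for HGF, 0 to 17 for Ito (8 to 10 unadjusted) and 3 to 25 for CD146. The upper ends where the Kupffer MCSF control of 1 day takes part come from leaving out its replicate 1, and leaving out its replicate 2 or 3 gave 10 or 7 for HGF, 8 or 6 for CD146, 6 or 6 for Ito and 13 or 11 for Kupffer minus monocytic. The replicate block gave 25 called genes over time in Kupffer MCSF cultures, 18 (16) in HGF cultures, and moved no count by over 1.5 times, while 3 single genes lost their call.

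Small differences turned sign under 2 settings: Fcer2a over time was -0.0243 with quantile normalization in monocytic HGF cultures, and with Ito cells in Kupffer cultures it was -0.0112 with quantile normalization and -0.0086 with median centring, Cd5 there was -0.0266 with centring, and Fcer2a with HGF in monocytic macrophages at 1 day was 0.0054 with centring. Trended robust moderation and the mean of probe sets moved no count by over 1.5 times. The causes of these moves were not tested. Values near the negative controls limit how far a fall can be followed, and with 3 arrays a group 1 array decides the counts named above.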
